A study of Mus musculus with 6 samples.

Results

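Transcripts of 4 genes of the N6-methyladenosine (m6A) machinery were measured in RNA immunoprecipitated with an anti-METTL3 antibody from mouse natural killer (NK) cells. They were Mettl3 and Rbm15b, which encode parts of the writer complex, Fto, which encodes an eraser, and Igf2bp3, which encodes a reader. The genes were taken by name from a table of 2652 genes, so they are 4 of 2652. That table lists only genes that were higher in the immunoprecipitate than in input. In METTL3-RIP (RNA immunoprecipitation with an anti-METTL3 antibody followed by sequencing) mean levels were 9.52 RPKM for Mettl3, 8.60 for Rbm15b, 1.85 for Fto and 0.235 for Igf2bp3. RPKM is the number of reads of a gene per kilobase of its exons and per megaread of the library, so levels can be compared between genes. In input the same transcripts were at 0.498, 0.712, 0.196 and 0.0109 RPKM.

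The cells were NK cells from the spleen of wild-type C57BL/6 mice. According to the study's methods, they were expanded in the animals by hydrodynamic injection of a pLIVE-IL-15 plasmid, made to express the cytokine IL-15 in the liver, and were then sorted. A smaller part of the cell lysate was kept as input, and the larger part was immunoprecipitated with an antibody against METTL3. Stranded RNA libraries were sequenced, 3 of METTL3-RIP and 3 of input. All libraries share this strain and treatment, the labels give no age or sex, and no mock immunoprecipitation was analysed here. Nothing states that replicates came from separate animals or cultures, so p-values measure only the spread between these libraries.

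m6A is placed on adenosines of nascent RNA by a complex in which METTL3 is the catalytic subunit and METTL14 its partner. RBM15 and RBM15B are RNA-binding adaptors of that complex. FTO is a demethylase that removes the mark, and IGF2BP proteins bind methylated messenger RNA and are known for stabilizing it.

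The table lists only genes that were higher in METTL3-RIP. Over 2487 listed genes with input reads, the ratio of mean RPKM in METTL3-RIP to that in input ran from 9.14 to 624, with a median of 14.4. The direction of every difference below is therefore fixed by the authors' choice of genes, and what varies is its size. Size has a lower edge too, since no listed gene with input reads had a ratio under 9.14. Small ratios, such as that of Fto, are to be read against that edge. Library totals recovered from the values were 9401509 to 11809744 reads in METTL3-RIP and 14710607 to 15992386 reads in input. None of the 12 NK cell markers looked for was listed, nor any of 7 T cell, 5 B cell, 5 myeloid or 3 erythroid markers, so the labelled cell type could not be checked with this table.

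m6A is laid down mostly within a short consensus whose most common form is GGACU, with the methylated A in the middle, and it is densest around stop codons. The letters GGACT, the DNA spelling of this form, were searched on the sense strand of the transcript with the longest coding sequence of each gene. For each gene the occurrence nearest to its stop codon is shown, since that is where the mark is best known. The sequences are from GENCODE M21 transcripts on GRCm38, 5′ to 3′ on the gene's strand, with the searched letters in capitals.
Mettl3, chr14:52294910-52294930, minus strand, 3′ UTR: ccttaagaGGACTgtttacgc
Rbm15b, chr9:106885321-106885341, minus strand, coding: ttggaaggGGACTggaccagc
Fto, chr8:91666294-91666314, plus strand, coding: agtcgtccGGACTttaccagt
Igf2bp3, chr6:49085936-49085956, minus strand, 3′ UTR: gaaacatcGGACTtccctttg

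These occurrences lay at different distances from the stop codon. The A of the motif was 62 nt after the last base of the coding sequence in Mettl3 and 1396 nt after it in Igf2bp3. In Fto it was 131 nt before that base, and in Rbm15b 1027 nt before it. The Mettl3 and Igf2bp3 occurrences also lie within exons of genes on the other strand, Tox4 and Malsu1. The Mettl3 transcript of 2025 nt held 4 occurrences, 3 of them coding and 1 in a 3′ UTR of 141 nt. Rbm15b held 6 in 6511 nt, with 3 coding and 3 in the 3′ UTR. Fto held 3 in 3564 nt, 1 coding and 2 in the 3′ UTR. Igf2bp3 held 2 in 4345 nt, 1 in each of those regions.

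Density ranged from 1.98 occurrences per kb in Mettl3 to 0.460 in Igf2bp3, with 0.922 in Rbm15b and 0.842 in Fto. The median was 1.13 per kb over 1903 listed coding genes and 1.02 over all 21951 coding genes of the annotation. Mettl3 was denser than 90.1% of the listed coding genes. Rbm15b was denser than 34.9%, Fto than 29.5% and Igf2bp3 than 9.88%. At least 1 occurrence was held by 96.6% of listed and 86.8% of all coding genes, so its presence sets none of the 4 apart. Mettl3 and Fto had 1 within 200 nt of the stop codon, and Rbm15b and Igf2bp3 had none. Of transcripts long enough for that window, 42.4% of listed and 39.0% of all coding genes had one there. The 3′ UTR of Mettl3 is shorter than the window, so Mettl3 itself is not among them. A match is a run of letters and not a measured m6A site.

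All 4 transcripts were higher in METTL3-RIP than in input in every pair of libraries, with the deposited scaling. In limma on log2(RPKM + 1), 4 of 4 passed an adjusted p of 0.05, in a table in which 99.9% of genes did so. The METTL3-RIP and input values did not overlap for any of the 4, as for 99.8% of all listed genes. The median log2 fold change was 1.87 over the 4 genes and 1.72 over the table. Those counts follow from how the table was made and say nothing particular of m6A genes. The transcripts of a bulk library come from many cells. For a low level, few cells with the transcript and little of it per cell therefore cannot be told apart.

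**Figure D1:**
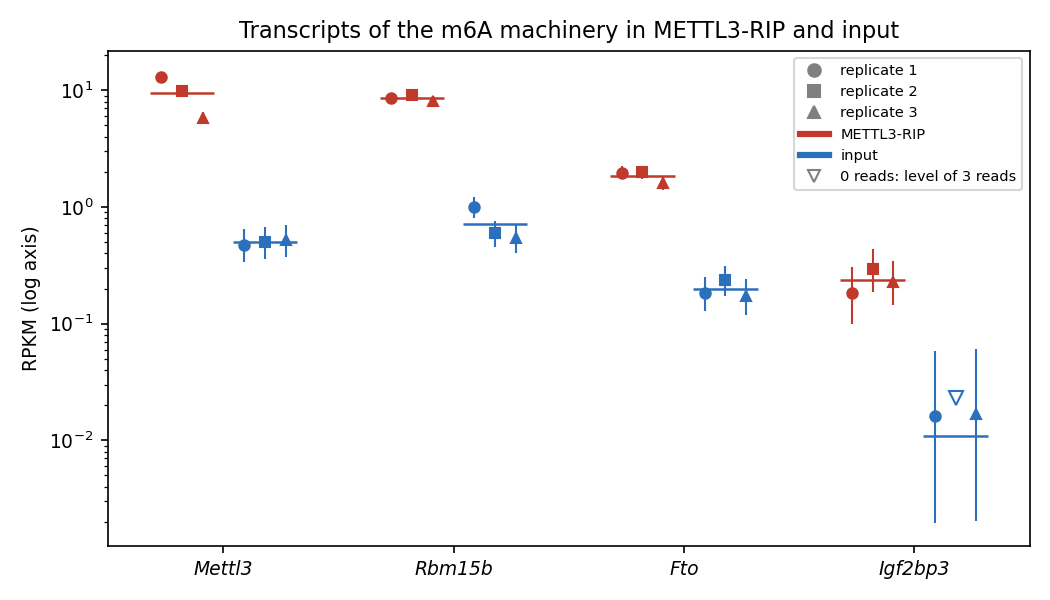
RPKM (log axis) of the 4 transcripts in each of 3 METTL3-RIP (red) and 3 input (blue) libraries; symbols mark replicate numbers, vertical lines are 95% intervals from read counting, horizontal lines are group means, and the open triangle stands at the level of 3 reads for the library with 0 reads. With the deposited scaling every red point lies above every blue point of its gene, and Mettl3 has the widest spread in METTL3-RIP.

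Mettl3, the catalytic subunit, encodes the very protein that was immunoprecipitated. Its levels in METTL3-RIP replicates 1, 2 and 3 were 12.9, 9.79 and 5.82 RPKM, from 639, 494 and 361 reads. Its input levels were 0.475, 0.500 and 0.518 RPKM, from 38, 42 and 40 reads. The observed input levels were thus close together, while the METTL3-RIP levels were not. The means were 9.52 ± 3.57 RPKM (SD, n = 3) in METTL3-RIP and 0.498 ± 0.0214 RPKM (SD, n = 3) in input, a ratio of 19.1. Over pairs of single libraries that ratio ran from 11.2 to 27.2. The log2 fold change on the log2(RPKM + 1) scale was 2.75 ± 0.23 (SE), with a limma adjusted p of 6.0e-06. Listed genes were chosen for being higher in METTL3-RIP. This limma adjusted p and those of the genes below therefore add no support for the rise.

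The spread of Mettl3 between METTL3-RIP libraries exceeded counting error. The 95% Poisson intervals of the 3 levels were 11.96 to 13.99, 8.95 to 10.7 and 5.24 to 6.46 RPKM, and none overlapped another. Such intervals and the read floors below cover counting error only. The coefficient of variation was 37.5% in METTL3-RIP against 4.30% in input. Input rested on 38, 42 and 40 reads, with 95% Poisson intervals of 0.336 to 0.653, 0.361 to 0.676 and 0.370 to 0.705 RPKM. So few reads cannot show that the input libraries were that even. Among 1420 listed genes with a mean of at least 100 reads in METTL3-RIP, the median coefficient of variation was 10.9% and the quartiles were 7.05% and 16.2%. Mettl3 was above 99.4% of these genes, and 8 had a larger value. Those 8 were the coding genes Dtx3, Pnpla7, Sgsm2 and Wdfy3, the antisense RNAs Gm20687 and Zmiz1os1, and the small nucleolar RNAs Gm25835 and Gm24339, named after their values were seen. Mettl3 was highest in replicate 1 and lowest in replicate 3, a span of 2.22 times. Replicate 3 was also the lowest METTL3-RIP library for Rbm15b and Fto, with spans of 1.14 and 1.24 times. Igf2bp3 was lowest in replicate 1. The cause of the spread of Mettl3 was not tested.

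**Figure D2:**
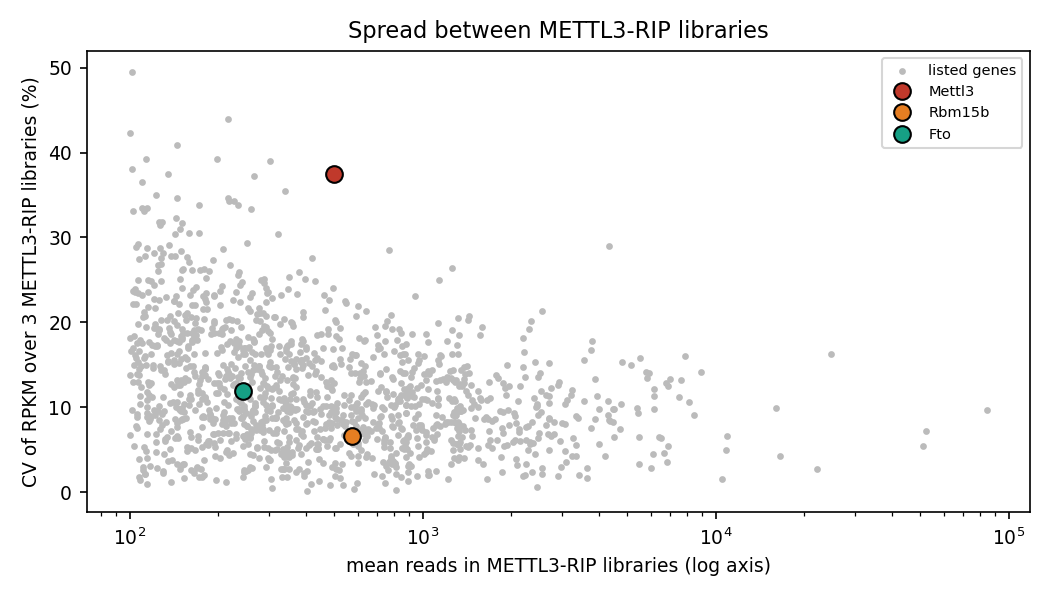
Coefficient of variation of RPKM over the 3 METTL3-RIP libraries (%) against mean reads in those libraries (log axis) for 1420 listed genes with at least 100 reads (grey) and for Mettl3, Rbm15b and Fto; Igf2bp3 has fewer reads and is not plotted. Mettl3 stands at 37.5%, above 99.4% of the genes, while Rbm15b (6.58%) and Fto (11.9%) lie within the bulk.

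The Mettl3 gene covers bases 52294841 to 52305128 of chromosome 14 (GRCm38, minus strand), with an exon union of 5076 nt in 10 blocks. Its values gave whole reads with a length of 5249 nt and not with the 5076 nt of GENCODE M21, a gap of 173 nt, whereas the other 3 genes gave whole reads with their GENCODE lengths. Its exons share 933 bases, or 18.4%, with exons of Tox4 on the other strand. Tox4 is not listed. Whether counting used the strand of the reads is not stated, so reads of Mettl3 and Tox4 in that stretch cannot be told apart.

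Rbm15b, the other gene of the writer complex, was nearly as abundant in METTL3-RIP and far more even. It was at 8.61, 9.15 and 8.02 RPKM in METTL3-RIP replicates 1, 2 and 3, from 527, 573 and 617 reads. In input it was at 0.999, 0.595 and 0.543 RPKM, from 99, 62 and 52 reads. Here the uneven group was input, where replicate 1 stood above the other libraries. The means were 8.60 ± 0.565 RPKM and 0.712 ± 0.249 RPKM (SD, n = 3 each), a ratio of 12.1 that ran from 8.04 to 16.9 over pairs of libraries. Without input replicate 1 the ratio was 15.1. The log2 fold change was 2.49 ± 0.12 (SE), with a limma adjusted p of 2.8e-07. After centring on the library medians the log2 fold change was 0.73, while dividing RPKM by the library medians gave a ratio of 0.754, so whether Rbm15b lay above or below the typical listed gene depended on the scale. Rbm15b is a single exon of 6511 nt on the minus strand of chromosome 9, from 106880918 to 106887428. It shares 75 bases with Dcaf1 on the other strand and 14 with Manf on its own strand, 1.15% and 0.215% of its length.

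Fto, the eraser, was at 1.97, 1.98 and 1.59 RPKM in METTL3-RIP replicates 1, 2 and 3, from 241, 248 and 245 reads. Its input levels were 0.181, 0.235 and 0.172 RPKM, from 36, 49 and 33 reads. The lowest METTL3-RIP library stood well above the highest input library. The means were 1.85 ± 0.220 RPKM and 0.196 ± 0.0340 RPKM (SD, n = 3 each), a ratio of 9.41 that ran from 6.77 to 11.5 over pairs of libraries. This was close to the lowest ratio in the table, and 62 of 2487 genes, or 2.49%, had a smaller one. The log2 fold change was 1.25 ± 0.09 (SE), with a limma adjusted p of 1.8e-06. After each library was centred on the median of its listed genes, the log2 fold change was -0.51, so Fto rose less than the typical listed gene.

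Fto spans 354915 bases on the plus strand of chromosome 8, from 91313525 to 91668439. Its exon union of 13031 nt in 13 blocks was longer than that of 88.0% of listed coding genes. Exons of 4831440D22Rik and Gm45427, both on the other strand, share 144 and 304 of these bases, 3.44% in all. Neither is listed.

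Igf2bp3, the reader, was measured with few reads. It had 14, 23 and 22 reads in METTL3-RIP replicates 1, 2 and 3, which correspond to 0.183, 0.293 and 0.228 RPKM. In input it had 2, 0 and 2 reads, at 0.0161, 0 and 0.0167 RPKM. The 0 in input replicate 2 allows a level of up to 3 reads, or 0.0230 RPKM, still below the lowest METTL3-RIP value. The means were 0.235 ± 0.0556 RPKM and 0.0109 ± 0.00946 RPKM (SD, n = 3 each), a ratio of 21.5. From the summed reads, 59 against 4, the ratio of levels was 22.0 with a 95% counting interval of 8.14 to 83.3. Leaving out input replicate 2 lowered the ratio of means to 14.3, and leaving out input replicate 3 raised it to 29.2.

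The log2 fold change of Igf2bp3 was 0.29 ± 0.05 (SE), with a limma adjusted p of 5.9e-04. That small value reflects the pseudocount of 1 RPKM, which exceeds every Igf2bp3 level. With a pseudocount of 0.1 RPKM it was 1.58. Centring on the library medians on the same scale gave -1.47, while dividing RPKM by the library medians gave a ratio of 1.29, so its place relative to the table depended on the scale too. Only 2.19% of listed genes had a lower mean in METTL3-RIP, and 8.22% had a lower mean in input. Igf2bp3 occupies bases 49085223 to 49214957 of chromosome 6 (minus strand), with an exon union of 8159 nt in 17 blocks. Exons of Malsu1 on the other strand share 1529 bases, or 18.7%, and Malsu1 is not listed. Reads of Igf2bp3 and Malsu1 there cannot be told apart either.

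By mean RPKM in METTL3-RIP the order was Mettl3, Rbm15b, Fto and Igf2bp3, and the first pair overlapped between libraries. Fto lay below both of these and above Igf2bp3 in every library. By ratio of mean RPKM the order was Igf2bp3, Mettl3, Rbm15b and Fto, in which the place of Igf2bp3 rests on 4 input reads. These ratios were larger than those of 77.9%, 72.0%, 33.9% and 2.49% of the 2487 listed genes. Counting intervals of the ratios from summed reads were 15.4 to 22.5 for Mettl3, 10.4 to 13.9 for Rbm15b and 7.62 to 11.4 for Fto. The interval of Mettl3 lay above those of Rbm15b and Fto, which overlapped each other, and that of Igf2bp3 overlapped all 3. The intervals leave out the spread between libraries, and the library ranges of Mettl3 and Rbm15b given above overlap.

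**Figure D3:**
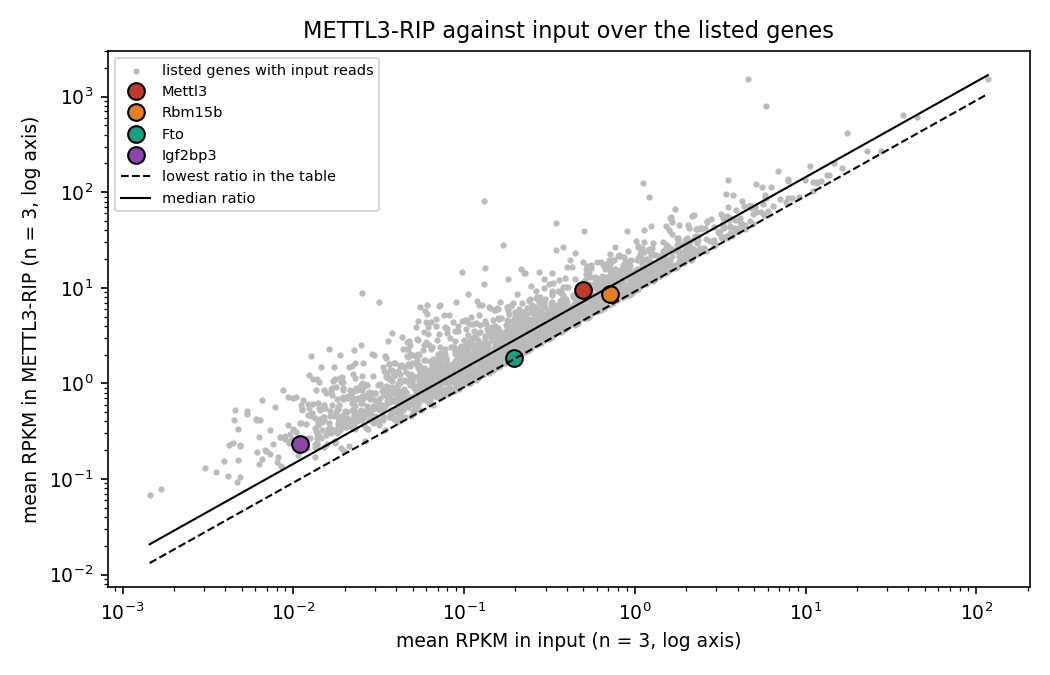
Mean RPKM in METTL3-RIP (n = 3, log axis) against mean RPKM in input (n = 3, log axis) for 2487 listed genes with input reads (grey) and the 4 transcripts; the solid line is the median ratio of 14.4 and the dashed line the lowest ratio of 9.14. Mettl3 and Igf2bp3 lie above the median line, Rbm15b lies between the lines, and Fto lies next to the dashed line.

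Ratios between transcripts of the same library do not depend on how the libraries are scaled. Mettl3 divided by Fto was 6.58, 4.95 and 3.66 in METTL3-RIP replicates 1, 2 and 3, against 2.62, 2.13 and 3.01 in input. All METTL3-RIP libraries stood above all input libraries, and the two-sided exact permutation p was 0.1, the smallest that 3 against 3 allows. Mettl3 divided by Rbm15b was 1.504, 1.07 and 0.726 in METTL3-RIP against 0.476, 0.840 and 0.954 in input. These values overlapped, with an exact permutation p of 0.3. Rbm15b divided by Fto was 4.38, 4.62 and 5.04 in METTL3-RIP against 5.50, 2.53 and 3.15 in input, with an exact permutation p of 0.4. Adjusted over these 3 pairs, the exact permutation p-values were 0.3, 0.4 and 0.4, so at this number of libraries none of the 3 differences could be shown. Pairs with Igf2bp3 were not tested because input replicate 2 had none of its reads.

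Other genes with roles in m6A were taken from a list of 32, of which 8 were in the table. Of all coding genes of the annotation, 1903 of 21951 were in the table. The list was chosen with earlier results of these data known and holds the 4 genes themselves. Its share is therefore not read as a result about m6A genes. Of writers and their complex 2 of 8 were listed, Mettl3 and Rbm15b, while Mettl14, Wtap, Virma, Zc3h13, Rbm15 and Cbll1 were not analysed here. Of the erasers, Fto was listed and Alkbh5 was not. Of the IGF2BP readers, Igf2bp3 was listed and Igf2bp1 and Igf2bp2 were not, and 0 of 5 YTH family readers were listed. Other RNA methyltransferases added 2 of 6 (Zcchc4 and Pcif1), and other proteins described as m6A-dependent RNA binders added 2 of 8 (Prrc2a and Fxr2). These 4 further genes all passed the test in the same direction, as did 99.9% of the table, with a median log2 fold change of 2.46. The log2(RPKM + 1) scale understates the change of low genes. By ratio of mean RPKM, Fxr2 (10.5), Pcif1 (11.5) and Zcchc4 (9.60) lay below the median of the table, 14.4, and Prrc2a (29.2) above it.

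Prrc2a, which encodes an RNA-binding protein described as an m6A reader, was the most abundant of the 8. It was at 46.2, 57.6 and 41.9 RPKM in METTL3-RIP and at 2.16, 1.47 and 1.35 RPKM in input. The means were 48.5 ± 8.11 and 1.66 ± 0.438 RPKM (SD, n = 3 each), a ratio of 29.2. On the log2(RPKM + 1) scale METTL3-RIP exceeded input by 4.22 ± 0.17 (SE), with a limma adjusted p of 1.5e-07.

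Fxr2, a relative of the fragile X protein, was at 11.6, 13.6 and 10.0 RPKM in METTL3-RIP and at 1.26, 1.23 and 0.866 RPKM in input. Its ratio was 10.5 and its log2 fold change 2.59 ± 0.14 (SE), with a limma adjusted p of 3.9e-07. Pcif1, which methylates adenosines next to the cap of messenger RNA, was at 7.22, 7.69 and 6.78 RPKM in METTL3-RIP and at 0.702, 0.678 and 0.509 RPKM in input. Its ratio was 11.5 and its log2 fold change 2.34 ± 0.10 (SE), with a limma adjusted p of 1.5e-07. Both genes lay below the median ratio of the table.

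Zcchc4, which methylates an adenosine of ribosomal RNA, was the least abundant of the further genes. It was at 0.830, 0.745 and 0.738 RPKM in METTL3-RIP and at 0.133, 0.0459 and 0.0624 RPKM in input. Its ratio was 9.60, with a range of 5.57 to 18.1 over pairs of libraries, and its log2 fold change was 0.71 ± 0.06 (SE), with a limma adjusted p of 7.7e-06. Like Fto, it lay near the lowest ratio in the table.

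**Figure D4:**
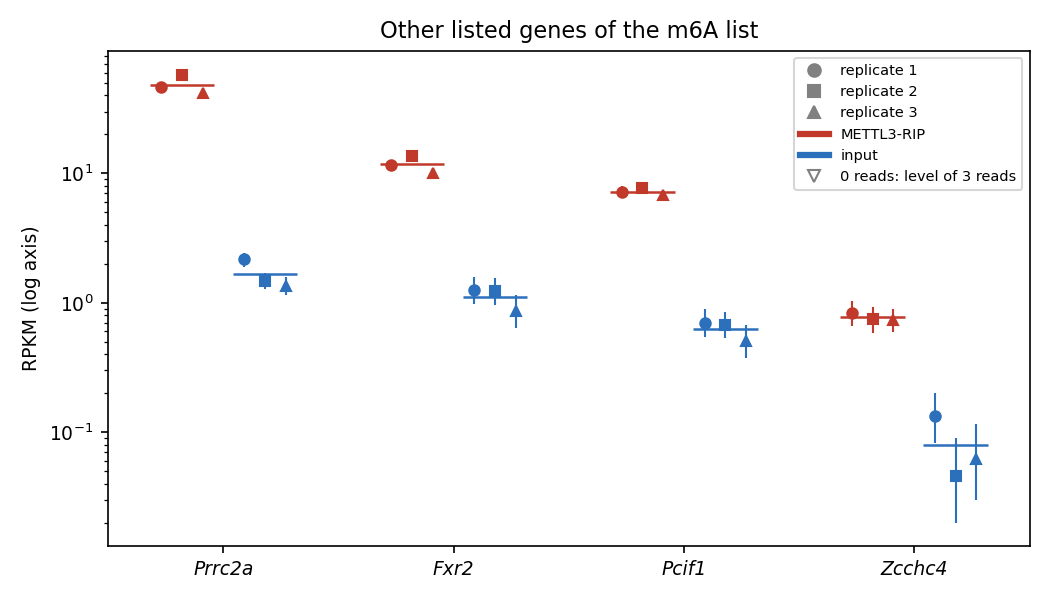
RPKM (log axis) of Prrc2a, Fxr2, Pcif1 and Zcchc4 in each of 3 METTL3-RIP (red) and 3 input (blue) libraries; symbols mark replicate numbers, vertical lines are 95% intervals from read counting and horizontal lines are group means. With the deposited scaling the groups do not overlap for any of the 4 genes, and Prrc2a has the widest gap between group means, at a ratio of 29.2.

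The Fto gene also holds loci of its own in the table. GENCODE places 6 provisional loci of the class TEC, whose transcription awaits experimental proof, inside the span of Fto, and 4 of them were listed. They were looked at after their values were seen. None of the 4 shares a base with an Fto exon, so all lie in its introns. Gm45292, on the strand of Fto and 136781 bases from its start, was at 1.25, 1.04 and 1.11 RPKM in METTL3-RIP, from 26, 22 and 29 reads. In input it had 0, 2 and 0 reads. Its mean in METTL3-RIP was 1.13 ± 0.110 RPKM (SD, n = 3), 61.4% of the level of Fto itself.

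The other loci were lower. Gm45290, on the opposite strand, was at 0.383, 0.455 and 0.762 RPKM in METTL3-RIP, from 14, 17 and 35 reads, with 2, 0 and 0 reads in input. Gm45294 and Gm45293, both on the strand of Fto, had 0 reads in all input libraries. Gm45294 had 14, 10 and 8 reads in METTL3-RIP, at 0.708, 0.495 and 0.322 RPKM. Gm45293 had 18, 10 and 6 reads, at 1.06, 0.574 and 0.280 RPKM. Their means were 27.5% to 34.5% of that of Fto. As the table holds only loci that were higher in METTL3-RIP, no test against input is given for them. Whether these reads came from unspliced Fto RNA or from separate transcripts was not tested.

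The share of TEC loci that were listed differed by where they lie. Over the genome 239 of 3219 TEC loci, or 7.42%, were listed. Of those inside a listed coding gene 79 of 316, or 25%, were listed, against 142 of 1578, or 9.0%, inside coding genes that were not listed and 18 of 1325, or 1.36%, inside no coding gene. Of 1903 listed coding genes, 57 held at least 1 listed locus and 3 held at least 4, namely Fto, Med13l and Ncoa2. Fto is the longest of these, at 354915 bases against 204760 for Med13l and 234979 for Ncoa2. Mettl3, Rbm15b and Igf2bp3 held no TEC locus.

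**Figure D5:**
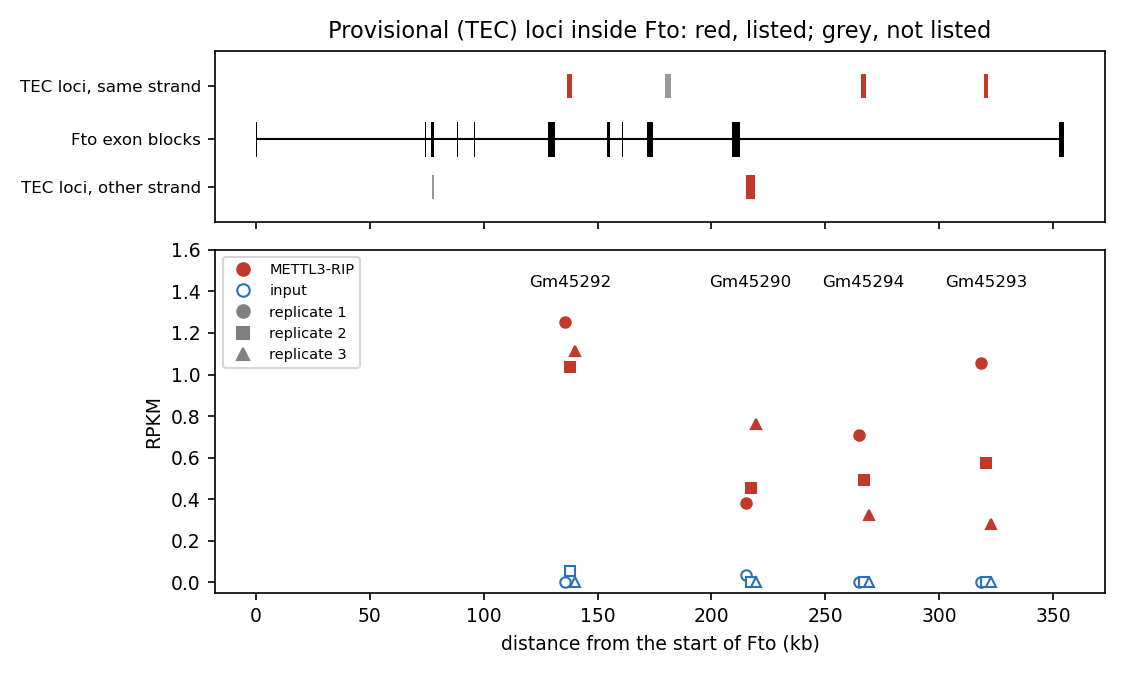
Top, exon blocks of Fto (black, with short blocks widened to be visible) and TEC loci on its own and the other strand, by distance from the start of Fto (kb), with listed loci in red and others in grey. Bottom, RPKM of the 4 listed loci in 3 METTL3-RIP (filled) and 3 input (open) libraries; METTL3-RIP values run from 0.280 to 1.25 RPKM, and 10 of the 12 input values are 0.

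The genes most like each transcript were found by Pearson's r of log2(RPKM + 1) over the 6 libraries, given as a description. Since all listed genes share the gap between METTL3-RIP and input, r was high throughout, with a median of 0.977 over the table for Mettl3, 0.989 for Rbm15b, 0.991 for Fto and 0.964 for Igf2bp3. Closest to Mettl3 were Gpr179, an orphan receptor gene, Cpeb2, which encodes a binder of 3′ UTR elements, and Tbx6, a T-box transcription factor gene. Their r ran from 0.9997 to 0.9998. All 3 were highest in METTL3-RIP replicate 1 and lowest in replicate 3, as Mettl3 was, with Cpeb2 at 1.44, 1.198 and 0.845 RPKM. Genes chosen by r over these same libraries share such an order by selection. Tbx6 had 0 reads in all input libraries.

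Among the genes closest to Rbm15b were Gpatch8 and Usp7, each with r of 0.9998. Usp7 encodes a deubiquitinase, and it was at 17.1, 17.1 and 15.5 RPKM in METTL3-RIP. Closest to Fto were the long noncoding RNA Mirt1, the F-box gene Fbxo21 and Fyco1, a gene of autophagosome transport, with r from 0.9996 to 0.9997. Closest to Igf2bp3 were Wdr90, Plekhm3 and the antisense RNA 4933423P22Rik, with r from 0.9982 to 0.9988. Each was highest in METTL3-RIP replicate 2, as Igf2bp3 was, an order that choosing by r again brings with it. The 95% counting intervals of Igf2bp3 in METTL3-RIP overlapped, at 0.0998 to 0.306, 0.186 to 0.440 and 0.143 to 0.346 RPKM. Its own order among replicates was thus within counting error. Between the 4 transcripts r ran from 0.929 for Mettl3 with Igf2bp3 to 0.991 for Mettl3 with Fto and for Rbm15b with Fto. Fto stood nearest to another of the 4, at rank 212 of the table by r with Mettl3.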

How the data were processed

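RNA was measured in 3 METTL3-RIP and 3 input libraries of splenic NK cells from wild-type C57BL/6 mice, grouped by their titles. The authors mapped reads to GRCm38 with STAR 2.5.3a, and the submitters' processing notes also name Trimmomatic 0.36, bedtools 2.25.0, deepTools 2.4.1 and HOMER 4.10. The counter, its annotation and its use of strand are not given in the sources used here. The deposited table holds a value per gene and library, taken as RPKM computed by the authors, beside a log2 fold change and a p-value of their own, which were not used. The unit was inferred from the values. With GENCODE M21 exon unions, 82.8% to 84.4% of the values above 0 in a library were whole reads within 0.01. Reads and library totals were recovered from these steps, with GENCODE lengths for 2144 genes. For 507 genes the shortest length that gave whole reads was used, and for 1 gene reads were rounded, which makes their reads less sure. Mettl3 is among the 507, with a length of 5249 nt. Its reads and counting intervals are thus less sure than those of Rbm15b, Fto and Igf2bp3. The sources do not say if reads or read pairs were counted.

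Values were compared as log2(RPKM + 1) with limma 3.58.1 in R 4.3.3 (lmFit, and eBayes with a trend), as a two-sided test. The p-values were adjusted by Benjamini-Hochberg over the 2652 genes and held against 0.05. This scale understates the change of low genes. The procedure was tested on simulated data in which most genes did not change. This table differs from that setting, and the outcome is not given here. The 4 genes, the m6A list and the tests were chosen with earlier results of these data known. The text names the 4 genes, listed genes of the m6A list, genes sharing exon bases with them, and the 3 genes most like each, of which 1 is not reported here, and other names are marked as chosen after values were seen. Alternatives were pseudocounts of 0.1 and 5 RPKM, a mean of at least 1 RPKM, centring on library medians, a replicate block, limma voom on recovered reads, and leaving out each library. The counting precision of a level is set by its reads, and its 95% interval is the exact Poisson interval of those reads. That interval leaves out the spread between libraries. Intervals of ratios come from the exact binomial interval of the summed reads, scaled by the library totals.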

Additional observations from a re-analysis of the deposited data

How the results depend on the processing

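Under every alternative run, each of the 4 genes that was tested passed the threshold. The direction was not the same in all, since Fto and Igf2bp3 passed as lower in METTL3-RIP after centring on library medians. Without centring nearly all listed genes passed too, as they had been chosen for this difference. Passing in those settings is therefore no sign that the results of the 4 are robust. With a mean of at least 1 RPKM required, 1671 of 1671 listed genes passed and Igf2bp3 dropped out. The median log2 fold change of the 4 genes, 1.87, was 3.09 with a pseudocount of 0.1 RPKM, 0.82 with 5 RPKM, 2.49 over the 3 genes left with at least 1 RPKM, and 3.89 with limma voom, which passed 2652 genes. Centring each library on the median of its listed genes lowered that median to 0.11 and the median of the table from 1.72 to -0.04. Of 2163 genes then past the threshold, 1044 were higher and 1119 lower in METTL3-RIP, against 2650 higher and 0 lower with the deposited scaling. Fto (-0.51) and Igf2bp3 (-1.47) were among the lower, and Mettl3 (0.99) and Rbm15b (0.73) among the higher. Ratios of mean RPKM after division by the library medians were 1.15 for Mettl3, 0.754 for Rbm15b, 0.579 for Fto and 1.29 for Igf2bp3, so Rbm15b and Igf2bp3 changed sides of the table's median between these scales.

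Leaving out each library in turn, 2629 to 2644 genes and 4 of the 4 passed, with a median log2 fold change of the 4 genes of 1.83 to 1.93. The ratio was 15.7 to 22.8 for Mettl3, 10.8 to 15.1 for Rbm15b, 8.86 to 10.4 for Fto and 14.3 to 29.2 for Igf2bp3.

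METTL3-RIP and input libraries carry the same numbers, but nothing says that a number marks a shared lysate, and the deviations of same-numbered libraries correlated at -0.019, -0.019 and 0.078. The numbers were therefore not treated as pairs. With the replicate block 2643 genes and 4 of the 4 passed, the median was 1.87, and the limma adjusted p was 3.6e-05 for Mettl3, 4.1e-06 for Rbm15b, 2.9e-05 for Fto and 0.0041 for Igf2bp3. Over all settings the limma adjusted p ran up to 0.0022, 3.2e-04, 1.8e-04 and 0.0056 for these genes, whatever the direction. For Fto the highest came from the centred fit, in which it was lower in METTL3-RIP. Depth limits Igf2bp3 most, since 4 input reads stand behind its ratio. Genes that are not in the table, and hence any transcriptome-wide rank of the 4, were not analysed here.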
